A study of Mus musculus with 6 samples.

Results

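The genes described here are 10 interferon-induced antiviral effectors, chosen by symbol from the deposited gene counts: the oligoadenylate synthetase genes Oas1a, Oas2 and Oas3, the synthetase-like genes Oasl1 and Oasl2, the IFIT genes Ifit1, Ifit2 and Ifit3, and the single genes Ifi44 and Bst2. All 10 were found among 29721 listed genes, and 10 of 10 passed the filter on low counts that left 17652 genes for testing. Messenger RNA of pancreas was sequenced from 6 Ela-myc mice aged 3 months, each library from a different animal. Ela-myc mice express Myc from the elastase promoter, a promoter of acinar cells, which secrete digestive enzymes, and every animal of both groups carried this transgene. The wild-type group (WT, 3 mice) and the knockout group (PARP2 KO, 3 mice) differed by the labelled genotype of Parp2, which encodes a DNA-dependent poly(ADP-ribose) polymerase. The tissue is labelled pancreas, the protocol refers to tumour samples and the deposited data are named preneoplastic, and no sample label says how much tumour or normal tissue a piece held. Parp2 (ENSMUSG00000036023) stood at 36.4 to 40.5 CPM (read counts scaled to library size) in the wild-type libraries and 12.4 to 14.4 CPM in the knockout libraries, a log2 fold change of -1.50, so the gene was lower in each knockout library but its transcript was still counted.

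Type I and type III interferons bind their receptors and, through JAK kinases, activate transcription factors that bind interferon-stimulated response elements in the promoters of such genes. Oligoadenylate synthetases sense double-stranded RNA and make 2-prime-5-prime-linked oligoadenylates, second messengers of the antiviral response, IFIT proteins bind viral RNA and the translation machinery, and BST2, also called tetherin, holds budding enveloped viruses at the cell surface. Most cell types can express these genes, and plasmacytoid dendritic cells are known for making large amounts of type I interferon.

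The stretches of promoter that hold the core of the response element are shown because interferon-induced genes are known to carry such elements. Not all of the 10 genes had a match, as given below. RefSeq promoters (GRCm38.p6) were given for 9 of the 10 genes (Oas2 was not among them), and the 250 bases before each start were searched on both strands for GAAANNGAAA. Each stretch below is written 5-prime to 3-prime on the strand of its gene, with the matches in capitals (a match on the opposite strand appears as its reverse complement), and 2 matches overlap in Oas1a and in Bst2.
Oas1a, chr5:120907526-120907645 (minus strand): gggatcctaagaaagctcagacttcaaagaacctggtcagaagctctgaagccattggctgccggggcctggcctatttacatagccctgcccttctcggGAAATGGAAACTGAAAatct
Oas3, chr5:120777660-120777779 (minus strand): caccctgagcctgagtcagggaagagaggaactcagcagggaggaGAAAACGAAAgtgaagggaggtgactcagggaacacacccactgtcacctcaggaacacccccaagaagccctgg
Ifit1, chr19:34640769-34640888 (plus strand): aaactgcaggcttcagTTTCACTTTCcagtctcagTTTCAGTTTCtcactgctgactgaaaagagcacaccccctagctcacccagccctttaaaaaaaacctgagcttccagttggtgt
Ifit3, chr19:34583363-34583528 (plus strand): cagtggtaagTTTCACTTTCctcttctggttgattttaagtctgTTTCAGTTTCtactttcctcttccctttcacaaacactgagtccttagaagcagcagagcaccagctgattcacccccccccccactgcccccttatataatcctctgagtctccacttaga
Bst2, chr8:71537473-71537612 (minus strand): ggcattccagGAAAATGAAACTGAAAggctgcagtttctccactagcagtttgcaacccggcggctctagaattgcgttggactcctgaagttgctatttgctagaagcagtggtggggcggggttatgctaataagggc
A match was found in 5 of 9 genes (55.6%), against 978 of 32851 promoters in the whole table (2.98%) and 3.40% of 12487 tested genes with a promoter in it. Among genes with a promoter listed, 5 of 6 OAS and IFIT relatives (83.3%) and 5 of 23 other antiviral effectors (21.7%) also had a match. The matches began 20 and 14 bases before the start in Oas1a, 75 bases before it in Oas3, 104 and 85 bases in Ifit1, 156 and 122 bases in Ifit3, and 130 and 124 bases in Bst2. The letters were not in these windows of Oasl1, Oasl2, Ifi44 or either listed start of Ifit2. Genes with a match included some that fell in the knockout (Oas1a, Bst2) and some that did not pass the test (Oas3, Ifit1, Ifit3).

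None of the 10 genes rose in the knockout and 5 of 10 fell: Oas1a, Oas2, Oasl2, Ifi44 and Bst2. Calls are at an adjusted p under 0.05 in edgeR's quasi-likelihood test over all 17652 genes, where 28.0% of genes were called higher and 25.0% lower. At an unadjusted p under 0.05 the counts were again 0 higher and 5 lower, and the unadjusted counts over all genes are not given here. The DESeq2 Wald test called 0 higher and 6 lower. Over all 22200 genes in that test it called 5026 higher and 4841 lower. Leaving out 1 library at a time gave 1 to 6 lower: 1 without wild-type replicate 2 or knockout replicate 1, 2 without knockout replicate 3, 3 without wild-type replicate 3, 4 without wild-type replicate 1 and 6 without knockout replicate 2. The median log2 fold change (knockout minus wild type) of the 10 genes was -0.94, against 0.02 over all genes tested, whose median absolute log2 fold change was 0.61. In 5 of the 10 genes the 3 knockout values all lay below the 3 wild-type values, a pattern seen in 33.7% of all genes, and in none did they all lie above, which 34.4% of all genes showed. With scaling by library totals, which moved the median log2 fold change of all genes to 0.42, 7475 genes were called higher and 2160 lower against 4938 and 4415, and 3 of the 10 genes fell (Oas2, Oasl2 and Bst2). In bulk tissue, fewer cells of a type and less RNA per cell cannot be told apart.

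**Figure D1:**
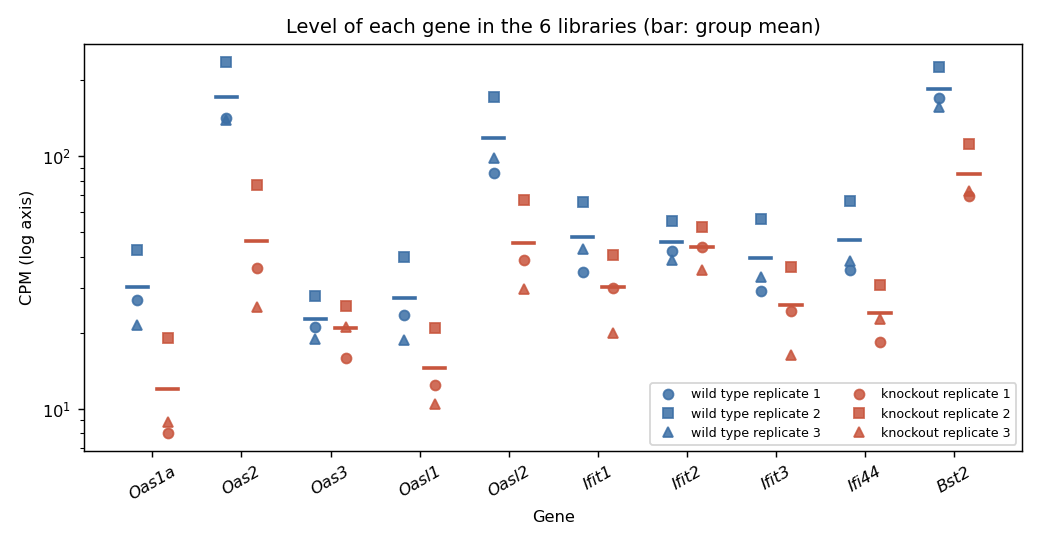
CPM of the 10 genes in each library (vertical log axis, genes along the horizontal axis), with the wild-type and knockout libraries side by side and a bar at each group mean. The 3 knockout points of Oas1a, Oas2, Oasl2, Ifi44 and Bst2 lie below the 3 wild-type points, whereas the groups overlap in the other 5 genes.

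Among the synthetases that make oligoadenylates, Oas1a and Oas2 fell and Oas3 did not pass the test. These lie in 1 gene cluster on chromosome 5 (GRCm38): Oas2 at 120730333-120749853, Oas3 at 120753098-120777661 and Oas1a at 120896256-120907521. Oas2, an enzyme built of repeated synthetase units, was counted at 141.7, 235.6 and 139.5 CPM in wild-type replicates 1 to 3 and at 36.3, 76.9 and 25.4 CPM in knockout replicates 1 to 3. The highest knockout value was below the lowest wild-type value, and replicate 2 was the highest library of both groups. Its group means were 172.3 ± 54.8 and 46.2 ± 27.2 CPM (SD, n = 3 each), and its log2 fold change was -1.90 (SE 0.47, adjusted p = 0.0183), the largest fall of the 10 genes. Without wild-type replicate 2 the adjusted p was 0.0567, and without knockout replicate 1 it was 0.0716.

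Oas1a, a mouse counterpart of human OAS1 with synthetase activity, stood at 26.9, 42.7 and 21.4 CPM in the wild type and at 8.03, 19.1 and 8.84 CPM in the knockout. The groups did not overlap, although knockout replicate 2 came close to wild-type replicate 3. The log2 fold change was -1.34 (SE 0.43, adjusted p = 0.0402), and the call was lost without wild-type replicate 1 (adjusted p = 0.0775), wild-type replicate 2 (0.111), knockout replicate 1 (0.122) or knockout replicate 3 (0.0998). The neighbouring copy Oas1g, which shares 57.6% of the 50-base stretches of Oas1a, fell by 2.18 on the log2 scale (SE 0.55, adjusted p = 0.0193), so reads of the 2 copies could have been divided differently by another counting. There were 2.82, 2.61 and 2.43 Oas1a reads per Oas1g read in the wild type and 4.30, 4.12 and 7.32 in the knockout. The groups of this ratio did not overlap. With both copies summed, the libraries held 36.4, 59.1 and 30.2 CPM in the wild type and 9.90, 23.7 and 10.05 CPM in the knockout. That sum, chosen after the data had been seen, fell by 1.53 on the log2 scale (SE 0.44, adjusted p = 0.0303), a fall of similar size to that of Oas1a alone.

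Oas3, the longest synthetase, was counted at 21.2, 28.02 and 18.9 CPM in the wild type and at 15.8, 25.5 and 21.1 CPM in the knockout. The groups overlapped, with a log2 fold change of -0.13 (SE 0.22, adjusted p = 0.651) that turned positive with scaling by library totals, without wild-type replicate 2 and without knockout replicate 1. The neighbours Oas2 and Oas3 thus stood in different proportions within the libraries: there were 6.69, 8.41 and 7.39 Oas2 reads per Oas3 read in the wild type and 2.29, 3.02 and 1.21 in the knockout. This ratio needs no scaling between libraries, and its 2 groups did not overlap. The difference in its log2 was -1.88, with an exact two-sided permutation p of 0.10, which is the smallest that 3 against 3 libraries can give, and 0.117 after Benjamini-Hochberg adjustment over 7 gene pairs. The ratio of Oas1a to Oas3 was 1.27, 1.52 and 1.14 in the wild type and 0.507, 0.749 and 0.420 in the knockout, with the same exact p of 0.10. These ratios, like those of the other pairs given, restate the fold changes of their 2 genes and are no separate support. How often ratios of other gene pairs separate by genotype was not examined.

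Of the synthetase-like genes, Oasl2 fell and Oasl1 did not pass the test. They are neighbours on chromosome 5 (Oasl2 at 114896936-114912234, Oasl1 at 114923240-114937915), some distance from the Oas cluster. Oasl2 stood at 85.9, 171.4 and 98.5 CPM in the wild type and at 38.9, 67.1 and 29.9 CPM in the knockout, groups that did not overlap. Its log2 fold change was -1.39 (SE 0.40, adjusted p = 0.0290). The call was lost without wild-type replicate 2 (adjusted p = 0.0748), wild-type replicate 3 (0.0532), knockout replicate 1 (0.103) or knockout replicate 3 (0.0655).

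Oasl1, known in mice as an inhibitor of the translation of the interferon regulator IRF7, was counted at 23.5, 39.9 and 18.8 CPM in the wild type and at 12.4, 20.9 and 10.4 CPM in the knockout. Only knockout replicate 2 reached into the wild-type range. The log2 fold change was -0.91 (SE 0.38, adjusted p = 0.0843), and the gene passed the threshold with the DESeq2 Wald test (adjusted p = 0.0279) and without knockout replicate 2 (adjusted p = 0.0328 in edgeR). Its exons overlap those of the antisense gene Gm13822 by 38 bases, and the strand setting of the counting is not given in the sources used here. The ratio of Oasl2 to Oasl1 reads was 3.65, 4.30 and 5.24 in the wild type and 3.14, 3.22 and 2.87 in the knockout, a log2 difference of -0.50 (exact permutation p = 0.10).

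None of the 3 IFIT genes passed the test, and their groups overlapped. They lie together on chromosome 19, Ifit2 at 34550694-34576419, Ifit3 at 34583531-34588731 and Ifit1 at 34640871-34650009. Ifit1, which binds viral RNA that lacks the cap methylation of host messages, stood at 34.9, 65.7 and 42.8 CPM in the wild type and at 30.2, 40.6 and 19.99 CPM in the knockout, with a log2 fold change of -0.66 (SE 0.33, adjusted p = 0.140). Ifit3, a smaller relative in the same family, stood at 29.4, 56.3 and 33.3 CPM against 24.4, 36.5 and 16.3 CPM, with a log2 fold change of -0.62 (SE 0.37, adjusted p = 0.195). Ifit1 and Ifit3 followed each other from library to library: the root mean square distance between their log2(CPM + 0.5) profiles, each taken relative to its wild-type mean, was 0.07, the smallest of all pairs among the 10 genes. Ifit3 shares 51.2% of its 50-base stretches with its copy Ifit3b, and the ratio of their reads was 3.81, 3.22 and 3.42 in the wild type and 3.42, 3.18 and 3.88 in the knockout.

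Ifit2 had the smallest difference of the 10 genes. It was counted at 42.3, 55.7 and 38.8 CPM in the wild type and at 43.7, 52.7 and 35.4 CPM in the knockout, a log2 fold change of -0.05 (SE 0.19, adjusted p = 0.828). Its sign turned positive with scaling by library totals, with sex or the digestive enzyme level as a term, and without wild-type replicate 2 or knockout replicate 3. Ifit2 profiles lay nearest to those of Oas3 (distance 0.21) and farthest from those of Oas2 (1.41). Within the libraries there were 0.823, 1.18 and 1.10 Ifit1 reads per Ifit2 read in the wild type and 0.691, 0.772 and 0.565 in the knockout, groups that did not overlap (log2 difference -0.61, exact permutation p = 0.10). Ifit3 reads per Ifit2 read were 0.694, 1.01 and 0.860 against 0.559, 0.693 and 0.462, with the highest knockout value just below the lowest wild-type value.

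**Figure D2:**
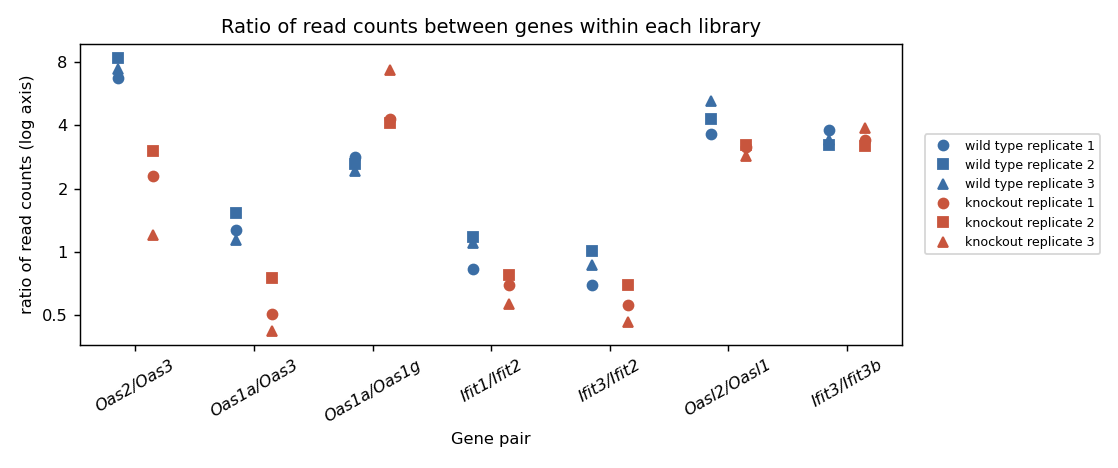
Ratio of read counts between genes of the same cluster or copy pair within each library (log axis), by genotype. Oas2 reads per Oas3 read lie between 6.69 and 8.41 in the wild type and between 1.21 and 3.02 in the knockout, whereas the ratio of Ifit3 to Ifit3b overlaps between the groups. The ratio of the other copy pair, Oas1a to Oas1g, lies between 2.43 and 2.82 in the wild type and between 4.12 and 7.32 in the knockout.

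Ifi44 and Bst2, which belong to neither family, both fell. Bst2 (chromosome 8, 71534255-71537456) stood at 170.7, 225.2 and 157.3 CPM in the wild type and at 69.6, 111.8 and 73.2 CPM in the knockout, so that every knockout library was below every wild-type library. Its means were 184.4 ± 36.0 and 84.9 ± 23.4 CPM (SD, n = 3 each), a 2.17-fold difference of means, with a log2 fold change of -1.12 (SE 0.23, adjusted p = 0.00950). Bst2 had the lowest adjusted p of the 10 genes and passed the threshold without any 1 of the 6 libraries, with adjusted p between 0.00253 and 0.0447. Ifi44 (chromosome 3, 151730922-151749960), an interferon-induced cytoplasmic protein, stood at 35.6, 66.4 and 38.4 CPM in the wild type and at 18.4, 31.0 and 22.7 CPM in the knockout. Its groups did not overlap, and its log2 fold change was -0.96 (SE 0.31, adjusted p = 0.0400). The Ifi44 call was lost without wild-type replicate 2 (adjusted p = 0.0811), wild-type replicate 3 (0.0544), knockout replicate 1 (0.134) or knockout replicate 3 (0.100).

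**Figure D3:**
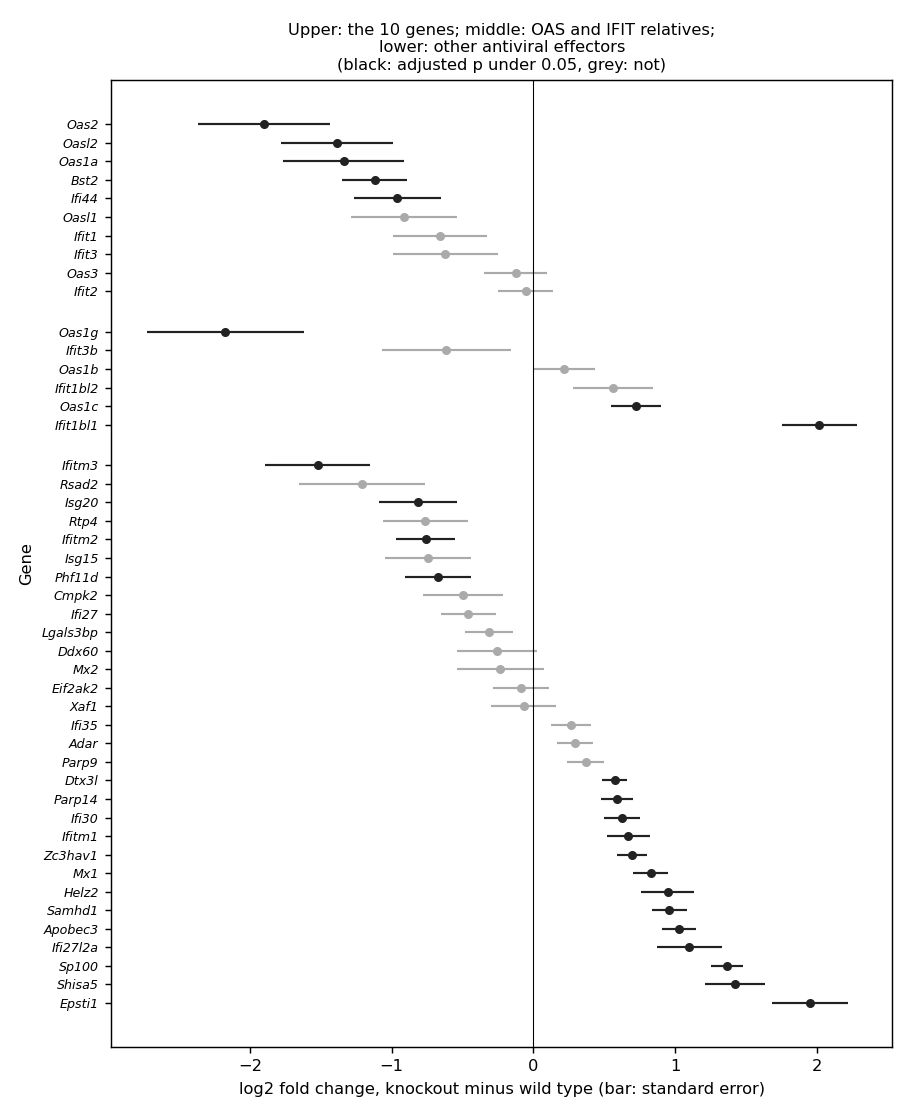
Log2 fold change (knockout minus wild type, horizontal axis) of the 10 genes (upper), 6 OAS and IFIT relatives (middle) and 30 other antiviral effectors (lower), with bars of 1 SE and genes past an adjusted p of 0.05 in black. All 10 upper estimates lie below 0, from -1.90 in Oas2 to -0.05 in Ifit2, whereas both other groups span 0.

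The order of abundance, compared as CPM per kilobase of exon, was headed by Bst2 in both genotypes, at 204.2 ± 39.8 in the wild type and 94.0 ± 25.9 in the knockout (SD, n = 3 each). No other member reached the Bst2 range in either group. Length was that of the merged exons of all annotated transcripts, from 1 transcript (Oas1a, Ifit1 and Ifit3) to 9 (Oasl2). Genes with many annotated transcripts can thus stand too low in this order, and which transcripts were present was not tested. In the wild type Oas2 came next at 38.7 ± 12.3, then Ifit3 at 22.7 ± 8.31, Oasl2 at 18.6 ± 7.25, Ifit1 at 18.0 ± 6.03 and Oas1a at 16.1 ± 5.86 CPM per kilobase, and each of these overlapped with its neighbour in the order. Ifit2 (11.6 ± 2.27), Oasl1 (10.5 ± 4.24) and Ifi44 (7.64 ± 2.78) followed, again with overlapping ranges, and Oas3 was lowest at 3.21 ± 0.673, below the range of every other member. In the knockout the order after Bst2 was Ifit3 (14.8 ± 5.82), Ifit1 (11.4 ± 3.89), Ifit2 (11.2 ± 2.20), Oas2 (10.4 ± 6.10), Oasl2 (7.11 ± 3.04), Oas1a (6.36 ± 3.27), Oasl1 (5.58 ± 2.13), Ifi44 (3.92 ± 1.05) and Oas3 (2.94 ± 0.684). Neighbours after Bst2 overlapped in the knockout, and Oas2 stood below all 3 IFIT genes there by its mean.

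The 10 genes shared their highest library within each genotype, but not their lowest. Wild-type replicate 2 was the highest wild-type library for 10 of 10 genes and knockout replicate 2 the highest knockout library for 10 of 10; both held for 17.8% of all genes tested. Knockout replicate 3 was the lowest knockout library for 6 of 10 genes, against 37.9% of all genes tested, and knockout replicate 1 was lowest for Oas1a, Oas3, Ifi44 and Bst2. Summed over the 10 genes, the libraries held 612.0, 986.9 and 607.7 CPM in the wild type and 297.7, 482.1 and 263.3 CPM in the knockout. The 2 highest libraries of their groups were also those with the largest share of reads on 23 digestive enzyme genes, which was 27.5%, 29.4% and 22.7% in the wild type and 4.28%, 14.3% and 0.0175% in the knockout. They were likewise the libraries with the lowest pan-leukocyte level of their groups: the median log2 CPM of 10 markers was 6.78, 6.12 and 6.45 in the wild type and 8.46, 8.12 and 8.78 in the knockout. With the enzyme level as a covariate the calls fell to 2 of 10 genes, Oas2 and Bst2. With the pan-leukocyte level as a covariate no gene of the 17652 was called in either direction (529 higher and 370 lower at an unadjusted p under 0.05), and the sign of all 10 genes turned positive, so that leukocyte level and genotype cannot be told apart here.

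The 5 other genes whose library profiles lay nearest to the median profile of the 10, among 14101 genes with a mean of at least 1 CPM in both genotypes, were Rassf10 (root mean square distance 0.089), Ifnlr1 (0.095), Lipt2 (0.125), Smoc2 (0.129) and Raet1e (0.13). The distance is over 6 libraries that share their scaling and tissue makeup, and is a description only. Of these, Ifnlr1 encodes the receptor chain specific to type III interferon. It stood at 5.09, 8.38 and 5.68 CPM in the wild type and at 2.49, 4.76 and 2.11 CPM in the knockout, groups that did not overlap, with a log2 fold change of -1.03 (SE 0.38, adjusted p = 0.0575) that did not pass the threshold. It did pass with the DESeq2 Wald test, with limma-voom, with limma on the deposited log2 values and without knockout replicate 2.

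The relatives of these genes did not share 1 direction. Of 6 tested OAS and IFIT relatives, Ifit1bl1 rose by 2.02 on the log2 scale (SE 0.26, adjusted p = 0.00290) and Oas1c by 0.72 (SE 0.18, adjusted p = 0.0163), and Oas1g fell as given above. The Oas1g call was lost without wild-type replicate 2 or knockout replicate 1, and 1 of the 6 relatives rose without wild-type replicate 1 or knockout replicate 1. With the digestive enzyme level as a covariate neither Oas1c nor Oas1g was called. Oas1c exons overlap those of the antisense gene Gm43069 by 227 bases, and the strand setting of the counting is not given. Abce1, a ribosome recycling factor listed with the oligoadenylate pathway, fell by 0.87 on the log2 scale (SE 0.13, adjusted p = 0.00361).

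Other antiviral effectors, 30 genes listed apart from the 10, rose more often than they fell: 13 rose, 4 fell, and the median log2 fold change was 0.28. The nuclear body protein gene Sp100 rose by 1.36, the cytidine deaminase gene Apobec3 by 1.03, the nucleotide hydrolase gene Samhd1 by 0.96 and Epsti1 by 1.95 on the log2 scale (adjusted p between 0.00201 and 0.00333). The 4 that fell, named after their values were seen, were Ifitm3 (-1.52), Ifitm2 (-0.76), Isg20 (-0.81) and Phf11d (-0.67), with adjusted p from 0.0169 to 0.0485. Rsad2, the antiviral enzyme viperin, had a log2 fold change of -1.21 (adjusted p = 0.0630) and the ubiquitin-like modifier Isg15 one of -0.75 (adjusted p = 0.0823), and neither passed the threshold; they too were picked out afterwards. The number that fell was 1 with scaling by library totals, 2 without wild-type replicate 1 or knockout replicate 3, 1 without wild-type replicate 2, 0 without knockout replicate 1, 7 without knockout replicate 2 and 7 with the DESeq2 Wald test. None of the 4 kept its call with sex as a term or with the digestive enzyme level as a covariate.

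Upstream, the receptors and kinases of the pathway rose or did not pass the test. Ifnar1 and Ifnar2, the chains of the type I interferon receptor, rose by 0.69 and 0.79 on the log2 scale (adjusted p = 0.00365 and 0.00225). The interferon gamma receptor genes Ifngr1 (0.95) and Ifngr2 (0.28) also rose, while Il10rb had a log2 fold change of 0.07 (adjusted p = 0.511). The kinase genes Jak2, Jak1 and Tyk2 rose by 1.34, 1.27 and 0.80 on the log2 scale. The transcription factor genes Stat2 (0.11, adjusted p = 0.459) and Irf9 (0.13, adjusted p = 0.374), did not pass the test, though both were called higher with scaling by library totals. Without any 1 library other than knockout replicate 2, 3 rather than 4 of the 6 receptor genes rose.

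Of 21 listed interferon ligand genes 3 were matched in the deposited table and 1, Ifng, passed the filter. Ifng, which encodes interferon gamma, stood at 0.0783, 0.129 and 0.138 CPM in the wild type and at 0.324, 0.410 and 0.437 CPM in the knockout, summing to 9 and 42 reads, a log2 fold change of 1.72 (SE 0.38, adjusted p = 0.0114). That call was lost with the DESeq2 Wald test and with the enzyme level as a covariate. Of 7 tested chemokines and other targets of interferon gamma 6 rose, among them Irf1 (1.42), Cxcl9 (1.59) and Ciita (2.14 on the log2 scale), with a list median of 1.42. Of 8 negative regulators and ISGylation genes 7 rose, while Usp18, the interferon-induced deISGylase, had a log2 fold change of -0.24 (adjusted p = 0.578). Of 20 nucleic acid sensor genes 10 rose, including Tlr9 (1.60) and Tmem173, which encodes STING (1.27), and 2 fell, a number that was 0 with scaling by library totals and without any 1 library other than knockout replicate 2. Of those counted as risen, Cxcl10, Socs3 and Ddx58 kept their calls in 1, 2 and 1 of the 6 fits with 1 library left out.

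**Figure D4:**
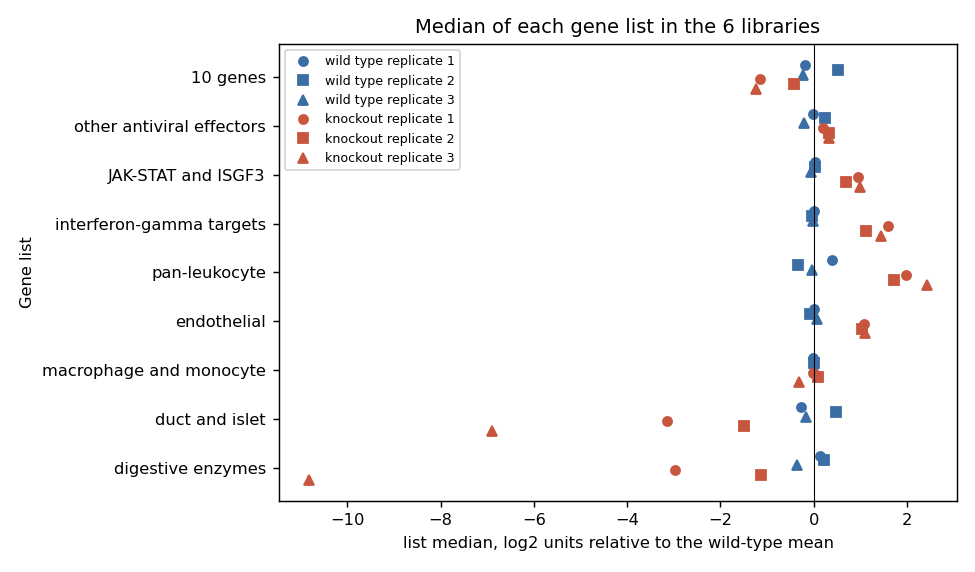
Median log2 level of each gene list (log2 of CPM + 0.5, with the mean of the 3 wild-type libraries set to 0 gene by gene, horizontal axis) in the 6 libraries. The 10 effectors lie between -1.24 and -0.42 in the knockout libraries, and the pan-leukocyte markers between 1.72 and 2.42.

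Markers of several other cell types differed with genotype beside these genes. All 10 pan-leukocyte markers rose, with a summed level of 939.5 to 1495 CPM in the wild type and 3467 to 5314 CPM in the knockout, and none was at 0 in all libraries. Of 12 plasmacytoid dendritic cell markers 8 rose and 2 fell (Clec12a and Atp1b1). The marker Siglech stood at 13.2, 2.11 and 4.68 CPM in the wild type and at 88.6, 66.9 and 62.0 CPM in the knockout. Bst2, which mouse plasmacytoid dendritic cells are also known to carry, fell, and which cells its reads came from was not tested. The list's summed level overlapped between the groups, at 1318 to 3061 CPM in the wild type and 744.0 to 1735 CPM in the knockout. Klk1 made up most of that sum in the wild-type libraries and knockout replicate 2 but not in knockout replicates 1 and 3: it stood at 2118, 2664 and 936.0 CPM in the wild type and 295.0, 1061 and 2.11 CPM in the knockout. Macrophage and monocyte markers were divided, with 3 of 11 higher and 3 lower (median log2 fold change -0.03). All 10 T cell markers rose, as did 10 of 10 fat cell and 7 of 8 endothelial markers, and of 10 B and plasma cell markers 8 rose and 2 fell (Xbp1 and Sdc1). Of 8 fibroblast markers the collagen genes Col1a1 (-1.21), Col1a2 (-0.89) and Col3a1 (-0.69 on the log2 scale) fell, as the 5 effectors did, and Postn rose, with a list median of -0.15. The number of lower calls was 5 macrophage markers without knockout replicate 2, 1 B and plasma cell marker without wild-type replicate 2 or knockout replicate 1, and 1 plasmacytoid dendritic cell marker without wild-type replicate 3 or knockout replicate 1. Atp1b1 was not called without wild-type replicate 2, wild-type replicate 3 or knockout replicate 1. Cox6a2, not called in the main fit, was called without wild-type replicate 2. Postn was not called without wild-type replicate 2, wild-type replicate 3 or knockout replicate 1. Col3a1 was not called without wild-type replicate 1, knockout replicate 1 or knockout replicate 3. Of the 3 lower macrophage markers, Cd68 was not called without wild-type replicate 1, wild-type replicate 2, knockout replicate 1 or knockout replicate 3. Among the rises, Cd8a and Cd8b1 were not called without wild-type replicate 1, wild-type replicate 3 or knockout replicate 1. Cd5 and Fcer2a lost their calls without wild-type replicate 3. The digestive enzyme genes, which define acinar cells, summed to between 235120 and 354966 CPM in the wild type and between 143.8 and 136612 CPM in the knockout. Their median log2 fold change was -2.41, but 0 of 23 were called in edgeR (0 at an unadjusted p under 0.05, and 2 lower by the DESeq2 Wald test and by limma-voom). The list median per library was -2.98, -1.12 and -10.8 in knockout replicates 1 to 3, so knockout replicate 3 stood apart, and without it 2 of the 23 were called lower. Of 10 duct and islet markers 4 fell, with a list median of -2.70. That number was 0 without knockout replicate 1 or any 1 wild-type library, 6 without knockout replicate 2 and 7 without knockout replicate 3. Apart from the 2 covariates above, the part of these differences in the values of the 10 genes was not tested.

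Libraries held 28105021 to 32055565 counts. By Xist and Ddx3y counts, wild-type replicates 1 and 2 and knockout replicate 1 were male and the other 3 libraries female. With sex as a term, Bst2 alone of the 10 genes passed the threshold.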

How the data were processed

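RNA from pancreas of 6 mice was sequenced after stranded mRNA library preparation, per the labels' protocols. The authors deposited whole-number read counts per gene and a table of log2 values, which matched, within 5.2e-14, the counts normalised by size factors of DESeq2, plus 1, on the log2 scale. The submitters' processing notes name GRCm38 (mm10) as the build and list STAR 2.5.3a, FastQC 0.11.5 and, again, DESeq2 1.28.1. Which program counted the reads, with which strand setting and annotation, is not given in the sources used here, so overlapping genes and near-identical copies have uncertain counts.

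In R 4.3.3, edgeR 4.0.16 tested the counts by its quasi-likelihood method (robust, TMM scaling, default expression filter, genotype only). P-values were adjusted over all 17652 genes by the Benjamini-Hochberg method, with a threshold of 0.05. Each SE is the absolute log2 fold change over the root of its F statistic. CPM are TMM-scaled, and profiles use log2(CPM + 0.5). Lengths and shared 50-base stretches come from GENCODE vM21 exons, and promoters from RefSeq. The fits were tested on simulated data. DESeq2 1.42.0, limma 3.58.1, other scalings, filters, covariates, thresholds and leaving out each library were alternatives. The only alternative chosen after seeing the data was summing Oas1a with Oas1g and Ifit3 with Ifit3b.

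The members and the gene lists were chosen with earlier results of these data known. Named genes were the 10 members, Parp2, interferon ligands and receptors, and from the other lists up to 4 genes with the smallest p. The 5 genes with the most similar profile were named too. Further genes (Stat2, Irf9, Usp18, Rsad2, Isg15, Siglech, Klk1, Cxcl10, Socs3, Ddx58) were picked after their values were seen. So were the markers named as fallen, as divided or for a lost call, and those said so in the text. Samples were grouped by labelled genotype, and replicate numbers follow accession order and pair no samples. Libraries are from different animals, and chi-square per degree of freedom between libraries of 1 genotype was 29.1 to 461, so none was a repeat within sampling noise. Depth was 28105021 to 32055565 counts. Some genes of the pathway are not reported here.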

Additional observations from a re-analysis of the deposited data

How the results depend on the processing

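The 5 falls among the 10 genes were counted again under each alternative, and no alternative called any of the 10 higher. The number that fell was 3 with library totals, 1 with no count filter, 1 with sex as a term, 2 with the digestive enzyme level as a covariate, 0 with the pan-leukocyte level as a covariate (0 lower and 4 higher at an unadjusted p under 0.05), 1 at an adjusted p under 0.01, and 1 to 6 when each library was left out. Genes called higher numbered 7475 with library totals, 3274 with the enzyme level, 0 with the pan-leukocyte level, 2766 at an adjusted p under 0.01 and 2683 at 1 or more log2 units, against 4938. Genes called lower numbered 2160, 2647, 0, 2103 and 1895 in the same order, and 2543 to 5032 when each library was left out, against 4415. With the pan-leukocyte level as a covariate the log2 fold changes were 1.31 for Oas1a, 1.49 for Oas2, 0.92 for Oas3, 1.73 for Oasl1, 1.86 for Oasl2, 2.26 for Ifit1, 1.39 for Ifit2, 2.52 for Ifit3, 1.11 for Ifi44 and 0.41 for Bst2, with adjusted p from 0.910 to 0.932 in edgeR. Oas3 changed sign with library totals (0.27) and over left-out libraries (-0.3024 to 0.0526). Ifit2 changed sign with library totals (0.34), with sex as a term (0.0089), with the enzyme level (0.20) and over left-out libraries (-0.21 to 0.11). Both library-total values lie below the median of all genes in that fit, 0.42. The cause of these changes was not tested. Bst2 kept its call in every alternative run at the 0.05 threshold other than the pan-leukocyte covariate. No paired analysis was possible because the labels give the groups no shared replicate numbers. With 3 libraries a group, the differences in Ifit1, Ifit3 and Oasl1 (SE 0.33, 0.37 and 0.38) did not reach the threshold in the main fit. That does not show that these genes were equal between genotypes.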
